A study of Mus musculus with 4 samples.

Results

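The 9 genes described here are the PGC-1 coactivators and the transcription factors through which cells make mitochondria: Ppargc1b, Ppargc1a, Pprc1, Esrra, Nrf1, Gabpa, Tfam, Tfb1m and Tfb2m. They were taken by name, and every probe set whose single platform gene symbol was one of these names was used, which gave 17 of 22690 probe sets on the array. Gene expression was compared between 2 wild-type and 2 NFATc1-deficient mouse osteoclast cultures, 1 array each. The mice were C57BL/6 and both groups were homozygous for a floxed allele of Nfatc1 (NFATc1 fl/fl). The wild-type group lacked Cre (MxCre-), and the deficient group carried it (MxCre+) and was given poly I:C to switch it on. The labels give no age, and do not say if wild-type animals had poly I:C as well. The Mx promoter responds to interferon in many tissues, so the deletion was not limited to the osteoclast lineage. Precursors were sorted from marrow, pooled from 3 mice for replicate 1 and from 4 mice for replicate 2, and kept for 3 days in M-CSF and RANKL.

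The PGC-1 proteins carry no DNA-binding domain and act as coactivators. They dock on nuclear receptors such as ERR alpha (Esrra) and on the nuclear respiratory factors NRF1 (Nrf1) and GABP (Gabpa), which switch on nuclear genes of the respiratory chain. Among the genes so controlled are Tfam, Tfb1m and Tfb2m, whose proteins enter the mitochondrion. There they act in packaging and transcribing its DNA or in modifying its ribosomal RNA. Osteoclasts are rich in mitochondria, and PGC-1 beta (Ppargc1b) is known to rise during their formation.

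The targeted gene was still read on the deficient arrays. The brighter Nfatc1 probe set had signals of 5433.6 and 6146.7 in the wild-type and 3018.2 and 4097.9 in the deficient cultures (log2 change -0.71, adjusted p = 0.0104), and with NFATc1-deficient replicate 1 left out it was at -0.49 (adjusted p = 0.0886). Which exons the probe sets cover was not analysed here. All 7 osteoclast markers on the array were bright in the wild-type and lower in the deficient cultures. Of these, Itgb3 (4.6 and 10.2) and Calcr (17.0 and 41.6) were below the filter level on both deficient arrays and Oscar (28.9 and 118.4) on 1, while Mmp9, Ctsk, Acp5 and Ocstamp had 1397.3 or more on every array. Their summed signal was 43638.4 and 49299.4 in wild-type and 19085.0 and 26174.8 in deficient cultures. In both genotypes the female transcript Xist was bright in replicate 1 (3595.4 and 2690.0 at 1436936_s_at) and dim in replicate 2 (106.1 and 111.4), so sex goes with replicate number.

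Among the coactivators, Ppargc1b was the 1 that fell. Its 1 probe set (1449945_at) had signals of 1707.4 and 1548.0 in the wild-type cultures and 190.5 and 359.1 in the deficient cultures. Both wild-type signals stood far above both deficient signals, and the groups did not overlap. The mean went from 1627.7 ± 113 to 275 ± 119 (SD, n = 2), which is 5.92-fold lower. On the scale of log2(signal + 23.3), where the added constant damps the noise of dim probe sets, the change was -2.53 (SE 0.24, 95% interval -3.07 to -1.98, adjusted p = 0.000352 by limma). Replicate 1 alone gave -3.02, and replicate 2 alone gave -2.04. Of 13577 probe sets tested, 47 had a change as low as this or lower. Across 12 other settings the change ran from -2.95 to -2.11, and the adjusted p was at most 0.0121.

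Of all probe sets tested, 24.2% passed an adjusted p of 0.05, 11.4% lower and 12.8% higher in the deficient cultures. Among the 11 probe sets of these 9 genes that were tested, 1 was lower and 2 were higher, and 8 did not pass. The share of higher calls is close to that of all probe sets, so it is no result about these genes as a group. The other 6 probe sets had mean signals below the 40th percentile of all probe sets (62.0) and were not tested: all 5 of Ppargc1a and 1 of Nrf1.

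**Figure D1:**
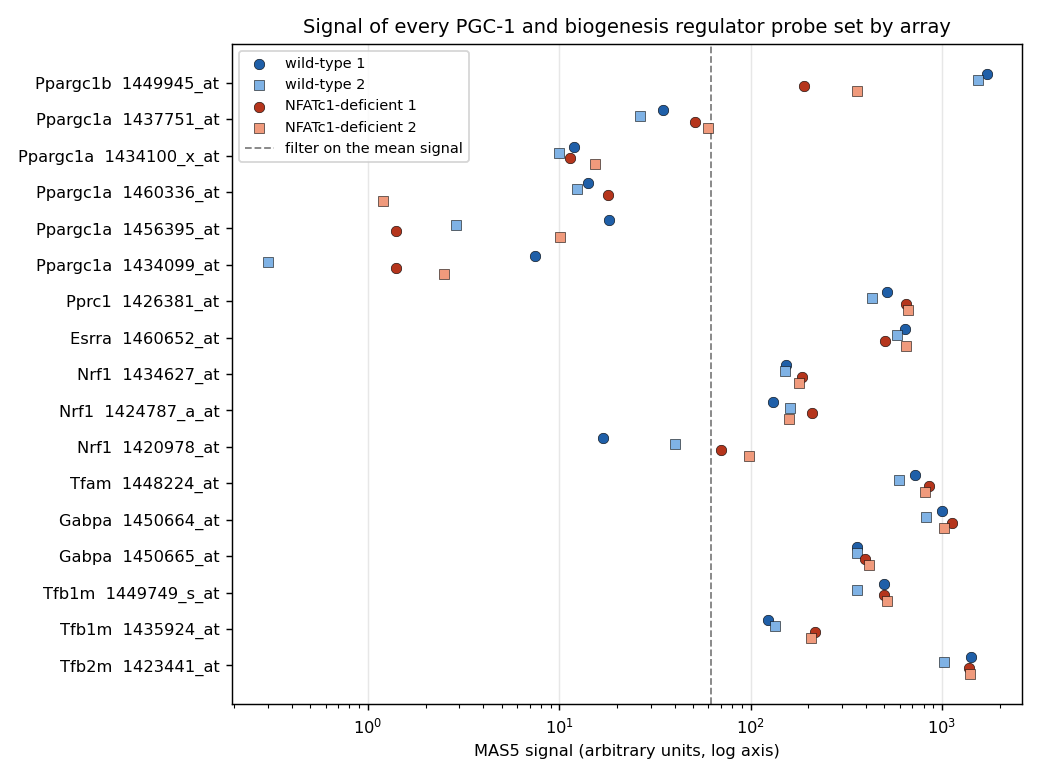
MAS5 signal (log axis) of each of the 17 probe sets of the 9 genes on each of the 4 arrays; blue marks are wild-type, red marks NFATc1-deficient, circles replicate 1 and squares replicate 2, and the dashed line is the filter at a mean signal of 62.0. The 2 deficient arrays lie at 190.5 and 359.1 for Ppargc1b, far left of the wild-type arrays, and no other probe set above the filter shows a gap of that size.

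Ppargc1a encodes PGC-1 alpha, the family member best known from brown fat, muscle and liver. None of its 5 probe sets reached the filter on any array. Its brightest probe set (1437751_at) had 34.9 and 26.5 in wild-type and 51.3 and 59.8 in deficient cultures, with both deficient signals higher and a log2 change of 0.55. The other 4 Ppargc1a probe sets ranged from 0.3 to 18.2 over all arrays, and their groups overlapped. In a fit with no filter the brightest had an adjusted p of 0.323, and the other 4 had adjusted p-values of 0.737 to 0.832. No detection calls were used, and how these signals stand against background is unknown.

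Pprc1 encodes PRC, the third coactivator of the family, which is known to be induced when resting cells enter growth. Its 1 probe set (1426381_at) had 513.3 and 432.9 in the wild-type and 646.5 and 660.1 in the deficient cultures. Both deficient signals lay above both wild-type signals. The mean was 1.38-fold higher (log2 change 0.45, SE 0.14, 95% interval 0.13 to 0.77, adjusted p = 0.0464), and this interval does not meet that of Ppargc1b. The call was near the threshold. It was lost in 6 of 12 settings, among them without wild-type replicate 2 (0.33, adjusted p = 0.216), without NFATc1-deficient replicate 1 (0.47, 0.132) or replicate 2 (0.44, 0.132), without a filter (0.0779) and with median scaling (0.0704), and its adjusted p ran from 0.0264 to 0.216.

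The DNA-binding partners of the coactivators did not pass the test. Esrra encodes ERR alpha, an orphan nuclear receptor for which PGC-1 proteins take the place of a ligand. Its signals were 638.2 and 581.1 in wild-type and 505.0 and 644.3 in deficient cultures, and the groups overlapped. The log2 change was -0.09 (SE 0.15, 95% interval -0.44 to 0.26, adjusted p = 0.718), and it was 0.08 without NFATc1-deficient replicate 1. The lower end of this interval lies well above the change of Ppargc1b.

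Nrf1, the nuclear respiratory factor that binds promoters of respiratory chain genes, had 3 probe sets. The first (1434627_at) had 152.4 and 150.7 in wild-type and 185.1 and 178.4 in deficient cultures, a log2 change of 0.23 (95% interval -0.22 to 0.68, adjusted p = 0.444). The next (1424787_a_at) had 131.2 and 159.7 against 209.4 and 157.9, a log2 change of 0.29 (adjusted p = 0.397), and here the groups overlapped. The dimmest (1420978_at) was below the filter, with 16.9 and 40.2 against 70.3 and 98.2 and a log2 change of 1.08. Without a filter its adjusted p was 0.120. All 3 Nrf1 probe sets had a higher mean in the deficient cultures, and none passed.

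Gabpa encodes the DNA-binding subunit of GABP, an ETS-family factor also called NRF2. Its brighter probe set (1450664_at) had 995.3 and 824.6 in the wild-type and 1122.0 and 1024.9 in the deficient cultures, a log2 change of 0.24 (95% interval -0.06 to 0.54, adjusted p = 0.233). The other (1450665_at) had 360.9 and 357.5 against 394.1 and 414.8, a log2 change of 0.16 (adjusted p = 0.470). In both, the deficient signals lay above the wild-type signals by a margin that did not pass.

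Among the factors that act inside the mitochondrion, 1 probe set passed, as higher. Tfam, which packages mitochondrial DNA and opens its promoters, had 718.6 and 595.2 in wild-type and 858.8 and 817.0 in deficient cultures. Both deficient signals were the higher ones, and the log2 change of 0.35 (SE 0.14, 95% interval 0.04 to 0.65) had an adjusted p of 0.0990. It passed without wild-type replicate 1 (0.48, adjusted p = 0.0486), and in the other settings the adjusted p was up to 0.426.

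Tfb1m encodes the methyltransferase that modifies the small ribosomal RNA of mitochondria. One probe set (1435924_at) had 123.6 and 134.2 in wild-type and 217.4 and 207.7 in deficient cultures, 1.65-fold higher in the mean (log2 change 0.63, SE 0.20, 95% interval 0.18 to 1.08, adjusted p = 0.0480). Its groups did not overlap. This call was lost without any 1 of the 4 arrays (0.100 and 0.0630 without wild-type replicates 1 and 2, 0.228 and 0.144 without NFATc1-deficient replicates 1 and 2), without a filter (0.121) and with replicate number as a block (0.0571), over a range of adjusted p from 0.0290 to 0.228. The brighter Tfb1m probe set (1449749_s_at) had 499.3 and 361.4 against 498.6 and 518.0, with overlapping groups and a log2 change of 0.25 (adjusted p = 0.348). The 2 probe sets of Tfb1m therefore differ in passing.

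Tfb2m, the factor that melts mitochondrial promoters for the polymerase, had 1420.5 and 1026.8 in wild-type and 1386.1 and 1393.6 in deficient cultures. Wild-type replicate 1 was the highest array and wild-type replicate 2 the lowest, so the groups overlapped. The log2 change was 0.20 (SE 0.15, adjusted p = 0.394). It was 0.43 (adjusted p = 0.0479) without wild-type replicate 1 and -0.03 (adjusted p = 0.916) without wild-type replicate 2.

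Of the 10 tested probe sets other than that of Ppargc1b, 9 had a positive change, also with median and quantile scaling. It was 12 of 16 without a filter, 8 of 10 without wild-type replicate 2 and 10 of 10 without NFATc1-deficient replicate 1. Nrf1, Gabpa and Tfb1m count here with more than 1 probe set. The share of positive changes over all probe sets was not computed, and their median change was 0.04. In 6 of the 10 in the main fit both deficient signals lay above both wild-type signals, which was so for 34.4% of all probe sets tested. With 1 probe set a gene, the median log2 change of the 8 genes tested was 0.23, beside 0.03 over all 7798 genes tested.

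**Figure D2:**
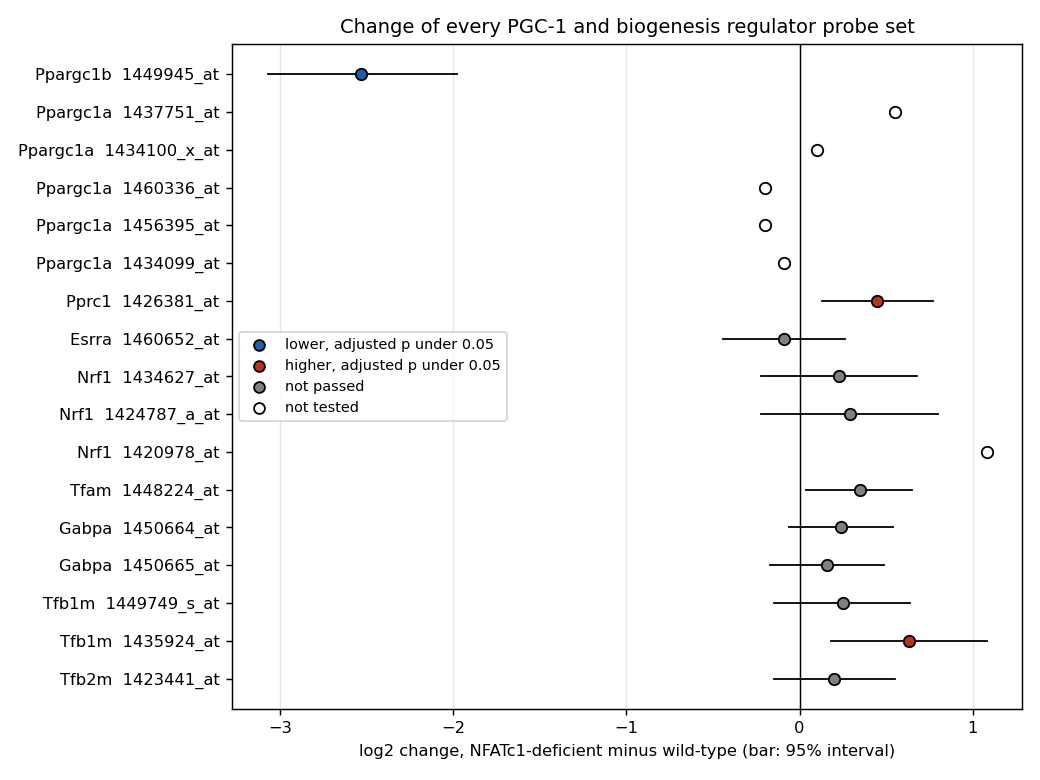
Log2 change (NFATc1-deficient minus wild-type, on the log2(signal + 23.3) scale) of each of the 17 probe sets; bars are 95% intervals from limma and open points were below the filter and not tested. Ppargc1b stands at -2.53, whereas the 10 other tested probe sets lie between -0.09 and 0.63, and of these only Pprc1 and 1 Tfb1m probe set passed.

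To show where NRF1, GABP, ERR, CREB and NFAT could be read at these genes, RefSeq promoters of build GRCm38.p6 (250 bases before to 50 after the start) were searched on both strands. The table held 9 promoters of 8 of the genes, all but Ppargc1b. The stretches below run 5′ to 3′ over the 150 bases before the start. They are shown for the 2 genes with a higher call (Pprc1, Tfb1m) and for 3 genes in which an NRF1 or ETS motif was found. Capitals mark the NFAT core GGAAAA in Pprc1 (on the reverse strand), the ETS motif CCGGAAG in Tfam and Gabpa (reverse strand in Gabpa) and the NRF1 motif GCGCANGCG in Esrra.
Pprc1, chr19:46056389-46056538, plus strand: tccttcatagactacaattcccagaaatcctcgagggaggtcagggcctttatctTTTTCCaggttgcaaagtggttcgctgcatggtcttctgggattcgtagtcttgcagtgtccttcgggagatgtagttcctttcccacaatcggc
Tfb1m, chr17:3557756-3557905, minus strand: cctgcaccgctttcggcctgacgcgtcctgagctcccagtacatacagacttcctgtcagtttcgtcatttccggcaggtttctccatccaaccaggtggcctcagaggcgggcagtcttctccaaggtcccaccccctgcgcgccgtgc
Tfam, chr10:71238045-71238194, minus strand: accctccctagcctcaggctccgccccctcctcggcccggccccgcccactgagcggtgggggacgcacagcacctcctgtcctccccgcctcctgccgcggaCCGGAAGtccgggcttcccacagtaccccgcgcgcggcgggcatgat
Gabpa, chr16:84834974-84835123, plus strand: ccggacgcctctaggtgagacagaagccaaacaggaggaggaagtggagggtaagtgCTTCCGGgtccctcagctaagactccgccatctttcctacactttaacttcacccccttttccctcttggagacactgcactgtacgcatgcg
Esrra, chr19:6921809-6921958, minus strand: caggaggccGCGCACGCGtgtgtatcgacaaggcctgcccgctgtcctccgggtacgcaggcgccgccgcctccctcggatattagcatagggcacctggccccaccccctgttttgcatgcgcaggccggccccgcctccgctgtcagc

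The ETS motif lay from -47 to -41 in Tfam and from -93 to -87 in Gabpa, counted from the start, and 8.86% of 32851 promoters in the table held it. GCGCANGCG lay from -141 to -133 in Esrra, and 6.25% of promoters held it. Its stricter form GCGCATGCG was found in Tfb2m only, after the start at 13 to 21, against 1.75% of promoters. GGAAAA was found in Pprc1 (-228 to -223 and -95 to -90), Gabpa (-36 to -31) and Ppargc1a (-240 to -235), and 23.4% of promoters held it. In these windows no match was found in Nrf1 or Tfb1m, and none for the ERR motifs TCAAGGTCA (0.423% of promoters) and AAGGTCA (4.72%), the second of which lies within the first, or for the CREB motif TGACGTCA (1.79%).

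Some transcripts of proteins that join the coactivators passed, in both directions. Of 27 tested partners and co-regulators of PGC-1, counted by the brightest probe set, 2 fell, 2 rose and 23 did not pass (median log2 change 0.00). These are 7.41% in each direction, beside 11.9% lower and 12.9% higher over all genes tested with 1 probe set a gene. Such small counts cannot be set apart from those shares. Sirt1, the deacetylase that activates PGC-1 alpha, had 667.7 and 565.5 in wild-type and 1061.4 and 1023.4 in deficient cultures and rose by 0.74 (adjusted p = 0.00458). Yy1, a zinc-finger factor that recruits PGC-1 alpha, rose by 0.49, but its 3 other probe sets did not pass (-0.41 to 0.43). Foxo3 changed by -0.69 and Mef2d by -0.56 (adjusted p = 0.0468), while another probe set of each had -0.06 and did not pass. Without NFATc1-deficient replicate 1, Foxo3 (adjusted p = 0.0739), Mef2d (0.246) and Yy1 (0.0579) no longer passed, and Mef2d was also lost without wild-type replicate 1 (0.0920). Their adjusted p-values ran from 0.00580 to 0.0739, 0.00797 to 0.246 and 0.00345 to 0.0831 over the settings. Kat2a, the acetyltransferase GCN5, was counted as not passed (0.32), although both its other probe sets passed as higher (1.19, adjusted p = 0.0321, and 0.63, adjusted p = 0.0268). Without wild-type replicate 2 these had 0.0504 and 0.0729, without NFATc1-deficient replicate 2 they had 0.157 and 0.0680, and the one at 0.63 had 0.161 without NFATc1-deficient replicate 1, the highest values over the settings being 0.157 and 0.161. Esrrb (-0.89, adjusted p = 0.160) and Rxra (0.78, adjusted p = 0.225) had larger changes that did not pass, and in each 1 array stood apart, at 21.6 for Esrrb in NFATc1-deficient replicate 1 and at 64.1 for Rxra in wild-type replicate 2. Both passed by limma with median scaling (0.0206 and 0.00470), although the Rxra groups overlapped. Adjusted p-values of that setting were far smaller than in the main fit for Ppargc1b also, so these 2 calls are not read as gains. Esrrb was at -1.51 without NFATc1-deficient replicate 2 and Rxra at 1.49 without wild-type replicate 1. The Gabpa partner subunit Gabpb1 had 0.20 (adjusted p = 0.488), and Yy1, Mef2d, Kat2a and Gabpb1 were picked for mention after their values were seen.

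Of 15 tested genes of upstream signals, 3 were lower, 2 were higher and 10 did not pass (median -0.01). These 5 are too few to set apart from the 11.9% lower and 12.9% higher over all genes. Myc, which drives growth and mitochondrial gene expression, rose from signals of 777.5 and 763.1 to 1685.0 and 1494.0 (log2 change 1.02, adjusted p = 0.000744). The groups did not overlap. The kinase Map2k3, which lies above p38, changed by -0.60 (adjusted p = 0.00613). The regulatory subunits of AMP-activated kinase Prkag2 (-0.61) and Prkag1 (-0.51) were lower, and the kinase Camkk2, which can activate it, was higher (0.46). Without NFATc1-deficient replicate 1, Prkag2 (adjusted p = 0.107), Prkag1 (0.137) and Camkk2 (0.142) no longer passed; Prkag1 was also lost without wild-type replicate 2 (0.120), and Camkk2 without wild-type replicate 2 (0.162) or NFATc1-deficient replicate 2 (0.0734). Over the settings these 3 had adjusted p-values of up to 0.107, 0.137 and 0.162. Of the other probe sets, 1 of Prkag2 also passed (-0.71), while those at -0.54 for Prkag2, 0.45 for Prkag1 and 0.33 for Camkk2 did not. Creb1, the factor through which RANKL is known to raise Ppargc1b, had 230.3 and 263.5 in wild-type and 294.1 and 324.4 in deficient cultures, a log2 change of 0.30 that did not pass (adjusted p = 0.243), nor did its other probe sets (0.76 and 0.27). Crem had -0.55 (adjusted p = 0.144). Creb1, Prkag1 and Camkk2 were picked after their values were seen.

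No gene for copying and transcribing mitochondrial DNA passed at its brightest probe set. Of 29 tested genes, limma called 0 (11.9% lower and 12.9% higher over all genes), with 3 at an unadjusted p under 0.05, and the median log2 change was 0.12. Those with the largest changes were Top3a (0.53, adjusted p = 0.160), Mterf4 (0.50, 0.0653), Polg2 (0.49, 0.277) and Mgme1 (0.41, 0.235). Polg2 passed without wild-type replicate 1 (0.87, adjusted p = 0.0303), over a range of 0.0303 to 0.831. Polrmt, the polymerase itself, had 0.02 at its brightest probe set, with 649.9 and 535.2 in wild-type and 643.9 and 558.3 in deficient cultures, while another probe set had -0.70 and passed (adjusted p = 0.0149), but not without NFATc1-deficient replicate 1 (-0.59, 0.0769, the highest over the settings). One of the other probe sets of Atad3a, an ATPase of the nucleoid, passed as higher (0.49, adjusted p = 0.0112, at most 0.0563 over the settings). Polrmt and Atad3a were picked after their values were seen. By brightest probe sets, 1 gene was lower in the blocked fit and 1 without NFATc1-deficient replicate 2, and 1 was higher without wild-type replicate 1 and 1 without wild-type replicate 2. Of genes encoded in mitochondrial DNA the array held 1, ND5, a subunit of complex I. Its signals were 10645.5 and 7701.9 in wild-type and 5700.0 and 6228.9 in deficient cultures, a log2 change of -0.60 (adjusted p = 0.0224). The groups did not overlap, but the 2 wild-type arrays were far apart. The ND5 call was lost in 6 of 12 settings. It was lost without NFATc1-deficient replicate 1 (-0.54) or replicate 2 (-0.67). By limma it was also lost without a filter (adjusted p = 0.0760), without the variance trend (0.0918) and with median (0.0915) or quantile scaling (0.0571).

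Nuclear genes reported as targets of the regulators were lower in part. Of 26 tested, 13 fell, 1 rose and 12 did not pass, with a median log2 change of -0.39 beside 0.03 over all genes, and 11.9% of all genes were lower. In this list and those below, the share over all genes was not matched for signal. Low signal limits precision, and most of these targets were bright. The 4 with the largest changes were the complex II anchor Sdhd (-0.80), the complex I subunit Ndufs1 (-0.74), the fatty acid dehydrogenase Acadvl (-0.70) and the complex III core subunit Uqcrc1 (-0.69). Sdhd had 5051.8 and 5057.0 in wild-type and 2862.8 and 2939.9 in deficient cultures (adjusted p = 0.00104), although another Sdhd probe set had -0.18 and did not pass. Ndufs1 had 2619.0 and 2739.8 against 1575.3 and 1614.7 (adjusted p = 0.00162). In both genes the 2 arrays of a group were close together and the groups were far apart. The rest of those that fell were Cs, Atp5o, Cpt1a, Cox5b, Idh3a, Cox6c, Cox4i1, Sdhb and Sod2, from -0.62 to -0.39. The classical NRF1 target Cycs, the electron carrier cytochrome c, had 10462.7 and 12942.2 against 10718.5 and 9704.3, with overlapping groups and a log2 change of -0.19 that did not pass (adjusted p = 0.339), though it did without wild-type replicate 1 (-0.34, 0.0183; range 0.0183 to 0.848). Of its 2 dimmer probe sets, 1 passed (-0.53, adjusted p = 0.00891, but 0.0737 without NFATc1-deficient replicate 2 and at most 0.0892) and 1 did not (-0.31, 0.0782). The fatty acid enzyme Acadm, a classical ERR alpha target, had -0.02 (adjusted p = 0.917). The gene that rose was the import receptor Tomm70a (0.63), whose 3 other probe sets did not pass (-0.01 to 0.23). Other probe sets of this list differed from the brightest in both directions. Among genes counted as not passed, 5 had another probe set that passed as lower (Atp5a1, Cox5a, Cycs, Slc25a4, Vdac1), and 1 had others that passed as higher (Tomm20, 0.51 and 0.43, beside 0.03 at the brightest). Both Tomm20 calls were lost without NFATc1-deficient replicate 1 (adjusted p = 0.0634 and 0.128), and the second also without NFATc1-deficient replicate 2 (0.172); the highest values over the settings were 0.0852 and 0.229. Among the 13 genes that fell, 5 had another probe set that did not pass (Atp5o, Cox5b, Cox6c, Cpt1a, Sdhd), at 0.08 in Atp5o and -0.01 in Cox6c. The genes named here for their other probe sets, and Acadm and Tomm70a, were picked after their values were seen. The count of 13 was 5 without NFATc1-deficient replicate 1, 6 without NFATc1-deficient replicate 2, 6 without a filter, 5 with median scaling and 4 without the variance trend, and 17 without wild-type replicate 1.

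**Figure D3:**
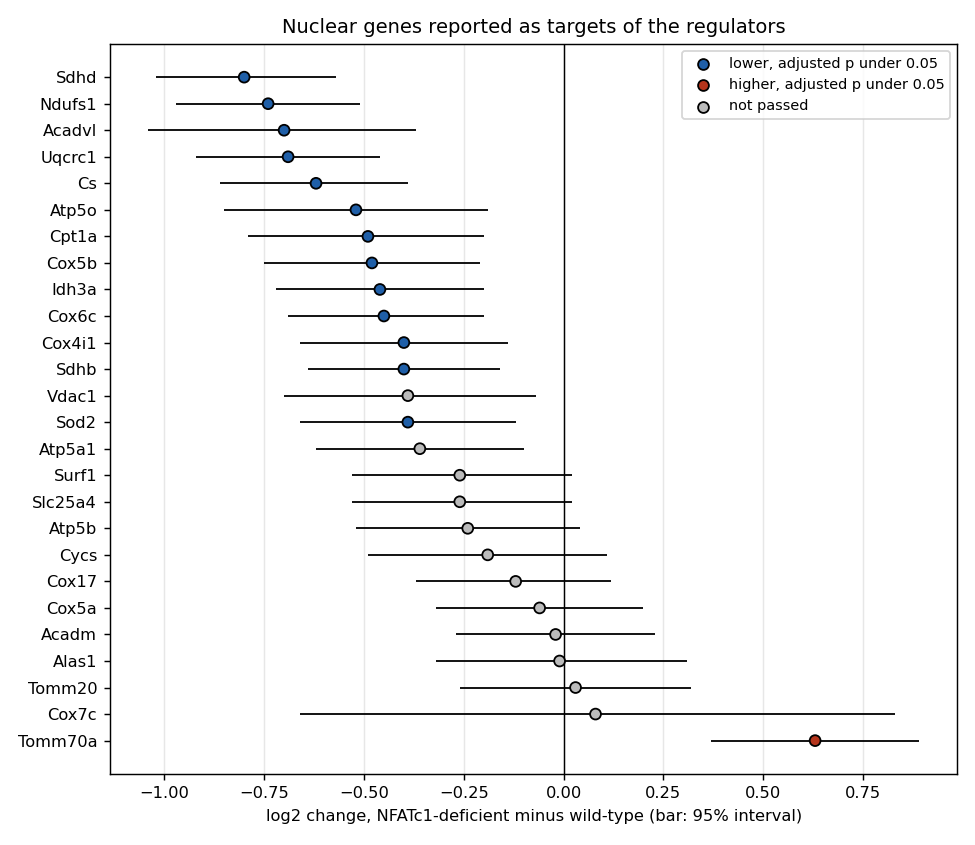
Log2 change (NFATc1-deficient minus wild-type) of the 26 tested nuclear genes reported as targets of PGC-1, ERR alpha, NRF1 or GABP, 1 probe set a gene; bars are 95% intervals from limma. The 13 blue points passed as lower, from Sdhd at -0.80 to Sod2 at -0.39, and Tomm70a alone passed as higher.

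Genes of mitochondrial shape and quality control were lower or did not pass. Of 21 tested, 6 fell and 0 rose by limma, with 7 at an unadjusted p under 0.05 and a median of -0.16. That is 28.6% lower, beside 11.9% lower and 12.9% higher over all genes. Sirt3, the mitochondrial deacetylase, had 155.8 and 310.5 in wild-type and 87.8 and 56.4 in deficient cultures (log2 change -1.38, adjusted p = 0.0168). The 2 wild-type arrays were far apart, and the call was lost without wild-type replicate 2 (-0.93, adjusted p = 0.0600), without NFATc1-deficient replicate 2 (-1.14, 0.0578) and without a filter (0.0670). The cristae proteins Chchd3 (-0.81) and Immt (-0.57) and the fusion protein Mfn2 (-0.78) fell, as did the mitophagy receptor Bnip3 (-0.78) and the protease Afg3l2 (-0.41). A second probe set also passed for Immt (-0.62) and Afg3l2 (-0.69), while others of Chchd3 (-0.20) and Immt (-0.31) did not. At its brightest probe set Afg3l2 lost its call without any 1 of the 4 arrays (adjusted p from 0.0677 to 0.197). Immt and Afg3l2 were picked after their values were seen. The count of 6 was 4 without wild-type replicate 2, without NFATc1-deficient replicate 2 and without a filter.

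Iron supply is known to be tied to PGC-1 beta in osteoclasts, since the respiratory chain needs iron-sulphur clusters. Of 10 tested genes, 5 fell and 0 rose by limma, with 5 at an unadjusted p under 0.05 and a median of -0.38, beside 11.9% lower and 12.9% higher over all genes. The transferrin receptor Tfrc had 7639.5 and 9838.8 in wild-type and 3614.9 and 4386.4 in deficient cultures (log2 change -1.12, adjusted p = 0.00137), and its 2 other probe sets had larger changes that also passed (-2.13 and -2.71). The assembly factors Isca1 (-0.82), Iscu (-0.54) and Isca2 (-0.50) and the haem enzyme Fech (-0.53) also fell. The calls of Fech without NFATc1-deficient replicate 1 (adjusted p = 0.0736) and of Isca2 without wild-type replicate 2 (0.0690) or NFATc1-deficient replicate 2 (0.0861) were lost, over ranges up to 0.0736 and 0.0861. Isca2 was picked after its values were seen. The count of 5 was 3 with median scaling and 2 without the variance trend.

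**Figure D4:**
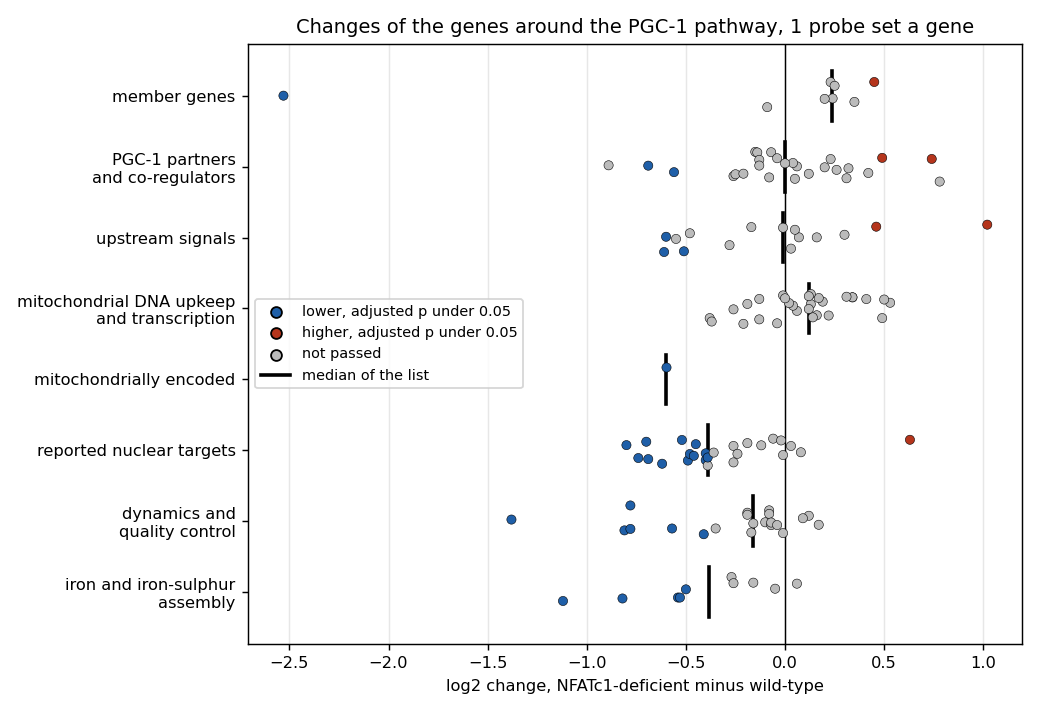
Log2 change (NFATc1-deficient minus wild-type) of every tested gene of each list, 1 probe set a gene; black bars are medians. Ppargc1b lies alone at -2.53 among the member genes, the mitochondrial DNA list has no call, and the reported targets (median -0.39) and iron genes (median -0.38) lie mostly left of 0.

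The genes whose pattern over the 4 arrays was most like that of Ppargc1b were the filamin-binding gene Fblim1, the lactate dehydrogenase gene Ldhb, Gask1b, Nudt22 and the TGF beta receptor gene Tgfbr2. Likeness was the Euclidean distance between the 4 log2 values of each gene, centred on their mean, and these had distances of 0.115, 0.207, 0.266, 0.274 and 0.290. Fblim1 had 641.5 and 639.3 in wild-type and 60.6 and 122.5 in deficient cultures. Ldhb had 1326.5 and 1138.4 against 165.2 and 259.9. As for Ppargc1b, NFATc1-deficient replicate 1 was the lowest array in each of the 5, and the groups did not overlap. Their changes ran from -2.59 to -2.32. The genes were chosen for this likeness, so these shared features follow from the choice and are no separate result.

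Markers of other cell types moved with genotype in some lists. The small counts below stand beside 11.9% lower and 12.9% higher over all genes tested. Granulocyte genes had a summed signal of 4908.1 and 5811.9 in wild-type and 14900.3 and 7286.6 in deficient cultures, and 4 of 8 rose. NFATc1-deficient replicate 1 was the highest array. The 4 changed more in replicate 1 than in replicate 2: S100a8 (2.25 and 0.57), S100a9 (2.53 and 0.15), Ngp (1.79 and 0.29) and Chil3 (1.60 and 0.92). Without NFATc1-deficient replicate 1 the log2 change of Ppargc1b was -2.11. The deficient array that remained also had a higher granulocyte sum (7286.6) than both wild-type arrays, so this was no test of the part of granulocytes. The sum of 8 macrophage genes was 33736.1 and 38509.3 against 29437.4 and 28756.9, with 2 of 7 tested lower and 1 higher. The sum of 7 dendritic cell genes was 5557.8 and 4644.7 against 7377.8 and 6777.1, with 3 of 6 higher. These were H2-Aa (0.79), H2-Ab1 (0.55) and H2-Eb1 (0.42). Flt3 went the other way (-0.55), and it, Itgax (0.07) and Cd74 (0.30) did not pass. Zbtb46 was below the filter. The list therefore did not move as a whole. Progenitor genes summed to 633 to 874 in wild-type and 990 to 1188.3 in deficient cultures and gave 0 calls among 4 by limma, with 2 at an unadjusted p under 0.05. Of 5 lymphoid genes, 3 (Cd3e, Cd79a, Ms4a1) were below the filter and 1 of 2 tested rose, and the sums were 330 to 518 against 579 to 630. Of 4 erythroid genes 3 were below the filter (sums of 108 to 150 against 137 to 202), and of 7 stromal genes 5 (289 to 436 against 372 to 376). The part of these cells, and of the lower osteoclast markers, in the changes above was not tested. In such bulk cultures fewer osteoclasts and less RNA of a gene per osteoclast cannot be told apart.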

How the data were processed

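RNA from 4 cultures was read on 1 Affymetrix mouse array each. The authors deposited linear intensities, 1 signal per probe set, which the submitters' processing notes credit to MAS5. MAS5 scales every array by 1 factor, and the trimmed mean was 500.2 on all 4. The number of arrays limits precision, as does low signal.

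Of 22690 probe sets, 20393 had 1 symbol in the platform annotation, 691 had several and 1606 had none; only single symbols were used. Signals were analysed as log2(signal + 23.3), the 25th percentile of all values. After 64 control probe sets were left out, 13577 passed the filter (mean over the 40th percentile, 62.0) and were fitted with limma 3.58.1 (lmFit, eBayes with trend) in R 4.3.3. The test was two-sided, for NFATc1-deficient minus wild-type, with Benjamini-Hochberg adjustment over all probe sets tested and a threshold of 0.05. For lists, the brightest tested probe set stood for a gene. An exact permutation test of 2 against 2 arrays cannot go below 0.333 and was not used.

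The members and lists were chosen with earlier results of these data known. Named were all probe sets of the 9 genes, Nfatc1, up to 4 genes of largest absolute change in each pathway list, and the 5 genes nearest to Ppargc1b. Alternatives were the pseudocount, filter, variance trend, scaling, a replicate block and leaving out each array. Probe set positions were not analysed.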

Additional observations from a re-analysis of the deposited data

How the results depend on the processing

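The fall of Ppargc1b passed in all 12 alternatives, and 1 of the tested probe sets of these genes was lower in each of them. The 2 higher calls were not stable: the number of higher probe sets was 0 without a filter, 1 with the filter at the 60th percentile (which leaves the dimmer Tfb1m probe set untested), 1 without the variance trend, 1 with median scaling, 1 with replicate number as a block, and 0 to 3 when 1 array was left out. Some changes that did not pass changed sign: Esrra to 0.08 without NFATc1-deficient replicate 1 (-0.26 to 0.08 over the left-out arrays), Tfb2m to -0.03 without wild-type replicate 2 (-0.03 to 0.43), Polrmt to -0.01 with quantile scaling (-0.11 to 0.16 over the left-out arrays) and Acadm to 0.07 without wild-type replicate 1 (-0.12 to 0.07). Of all values for these 9 genes under the alternatives, 120 kept direction and neither gained nor lost a call, 12 lost the call, 2 gained it and 2 changed sign. The 120 include values of the 6 probe sets not tested in the main fit, which had no call to keep.

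Of all probe sets tested, 1740 were higher, against 1157 without a filter and 990 without the variance trend; leaving out 1 array gave 840 to 1953 higher and 937 to 1541 lower (1552 in the main analysis). Of the pathway list genes 30 were lower, against 18 without a filter, 14 without the variance trend, 19 with median scaling and 15 to 32 when 1 array was left out; 5 were higher, against 3 without the variance trend and 3 to 7 when 1 array was left out. The cause was not tested, and a fit without a filter adjusts over more probe sets. Where an array was left out, its partner was assumed to vary like the other group.

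The replicate numbers are shared between genotypes, and they go with sex, as read from Xist, and with the number of mice pooled. The labels do not say that they mark a shared litter or day. The deviations of same-numbered arrays from their group means correlated at 0.13 over probe sets. With replicate number as a block Ppargc1b was at -2.53 (adjusted p = 1.08e-06, at most 0.0121 over the settings), and the dimmer Tfb1m probe set lost its call (adjusted p = 0.0571, range 0.0290 to 0.228). The blocked fit has fewer degrees of freedom than the main fit, so its smaller p-value for Ppargc1b is not read as stronger evidence. Signal over background is unknown, which limits Ppargc1a and the dimmest Nrf1 probe set most.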
